A study of Bubalus bubalis with 6 samples.

Results

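The genes of the mitochondrial ribosomal proteins were followed in muscle stem cells (MuSCs) of the water buffalo. Members were taken by name, as every protein-coding gene in the deposited gene table whose symbol begins with MRPL (large subunit proteins) or MRPS (small subunit proteins). This gave 71 genes with 70 symbols among 24616 listed genes, 45 of them MRPL and 26 MRPS. The rule uses names and no measured value. All 71 members had enough counts to be tested, with 15576 genes tested in all. MRPL12, MRPL17, MRPL23, MRPL30, MRPL37, MRPS14, MRPS15 and MRPS17, which belong to the same family, were not analysed here.

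The mitochondrial ribosome, or mitoribosome, translates the few mRNAs of the mitochondrial genome, which encode core subunits of the respiratory chain and of ATP synthase. Its proteins are encoded in the nucleus, made on cytosolic ribosomes and imported, and then assembled on mitochondrial rRNA into a small subunit, which holds the mRNA and decodes it, and a large subunit, which joins the amino acids. Many of these proteins have counterparts in bacteria and the others are particular to mitochondria. Skeletal muscle relies heavily on oxidative metabolism, and defects in mitoribosomal proteins cause disease in energy-demanding tissues.

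The MuSCs were primary cells digested from fetal longissimus muscle with type I collagenase and trypsin. The GM samples (n = 3) were proliferating cells in growth medium, high-glucose DMEM with fetal bovine serum, and the DM samples (n = 3) were cells switched near confluence to differentiation medium, DMEM with horse serum, for several days. No genotype or drug differed between the groups, and no source used here says whether the 3 samples of a group came from separate animals or cultures, so that p-values measure only the spread between these samples. RNA was sequenced from poly(A) libraries, and 35615864 to 40305237 reads per sample were counted on genes. DM replicate 3 stood apart from the other DM samples. A chi-square comparison of the members' counts, divided by its degrees of freedom, gave 4.92 for DM replicates 1 and 2. Pairs with DM replicate 3 gave 18.4 and 19.8, while pairs of GM samples gave 2.88 to 7.35. Over all tested genes DM replicates 1 and 2 gave 11.7. Pairs with DM replicate 3 gave 40.5 and 41.4 there, and pairs of GM samples 6.22 to 10.6. Members whose call changed without that sample are given both ways. The labelled cell type was checked against 16 myogenic markers. Their summed level was 3470 to 4090 CPM (counts scaled to a common library size) in GM samples and 6390 to 8480 CPM in DM. At an edgeR adjusted p under 0.05, 9 were higher in DM (56.2%, against 31.6% of all tested genes) and 6 lower (37.5%, against 31.4%). Fibroblast markers summed to more, 36000 to 36800 CPM in GM samples and 98600 to 124000 CPM in DM samples. These sums do not give the share of each cell type.

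Most genes of the mitoribosome were lower in DM than in GM, by modest amounts. In edgeR's quasi-likelihood test with Benjamini-Hochberg adjustment over all tested genes, 46 of the 71 members fell in DM at an adjusted p under 0.05, which is 64.8% of them, against 31.4% of all tested genes. A single member, MRPL4, rose (1.41% of members, against 31.6% of all tested genes), and 24 did not pass. The median log2 fold change (DM over GM) was −0.38 over the members, a 1.30-fold lower level in DM, and 0.03 over all tested genes. The fold change was below 0 for 64 members (90.1%), against 48.7% of all tested genes. Without DM replicate 3, 51 members fell, 45 of them among the 46, and the median was −0.45, while 32.5% of all tested genes fell. The call of MRPL1 was lost (−0.16, edgeR adjusted p = 0.134), and 6 members passed that had not, MRPS11, MRPS36, MRPL14 (−0.37), MRPS21 (−0.32), MRPS18B (−0.30) and the MRPL33 row on chromosome 14 (−0.46).

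Few of these changes were large. The study's thresholds on change were an adjusted p under 0.05 and a log2 fold change beyond −1 or 1, and 3 members passed both, all lower in DM, which is 4.23% of members against 10.3% of all tested genes. The study also kept just the genes that reached 1 RPKM in over 50% of samples. With the test run on those genes 2 members passed both thresholds, MRPS23 and MRPL11. In that run 42 members fell, as did 34.8% of the genes tested. None was higher by the first rule, by edgeR or by DESeq2, against 15.0% of all tested genes, and 1 member, MRPL4, was higher at an unadjusted p under 0.05. In 49 members every DM sample lay below every GM sample, which held for 34.3% of all tested genes. The opposite order was seen in 2 members, MRPS31 and MRPS35, and in 34.5% of all tested genes. Neither gene passed the test, with MRPS31 at 20.3 to 20.6 CPM in GM and 20.7 to 22.2 CPM in DM.

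**Figure D1:**
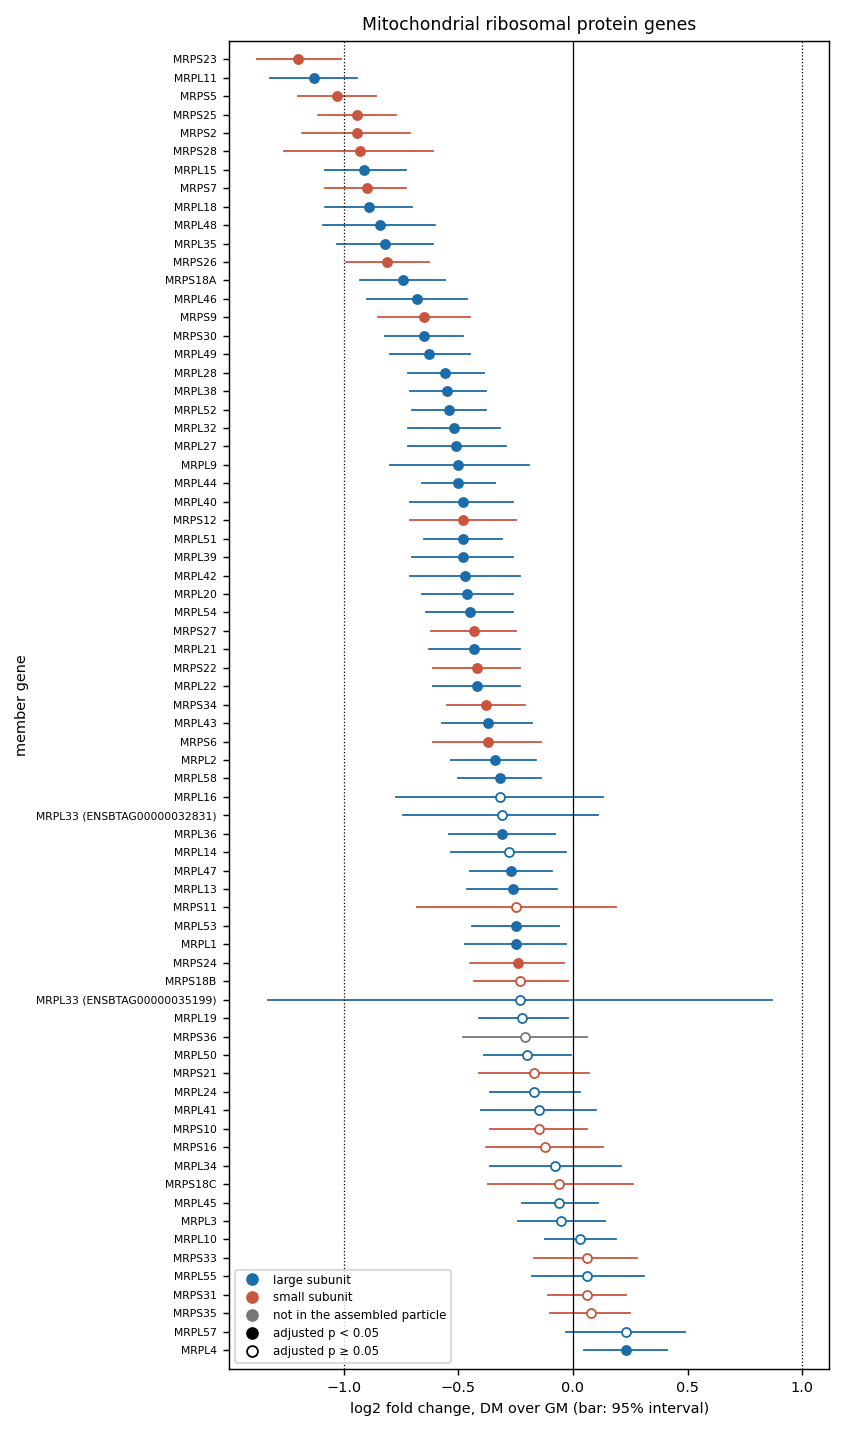
Log2 fold change, DM over GM, of each of the 71 members, ordered by value, with its 95% interval as a bar and the subunit as the color. Filled points passed an adjusted p of 0.05, and dotted lines mark log2 fold changes of −1 and 1. Most points lie left of 0, 3 lie left of −1, and MRPL4 at 0.23 is the single filled point right of 0.

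MRPS23, a small subunit protein without a bacterial counterpart, had the lowest fold change. Its counts were 2219, 2423 and 2047 in GM replicates 1 to 3 and 734, 885 and 973 in the DM replicates. After normalization this was 55.2 ± 2.61 CPM in GM and 24.1 ± 2.28 CPM in DM (SD, n = 3), with each DM sample below the lowest GM sample. The log2 fold change was −1.20 (SE 0.0842, edgeR adjusted p = 5.78e-07), a 2.29-fold lower level in DM.

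MRPL11 sits at the base of the stalk where elongation factors dock on the large subunit. Its counts were 1099, 1170 and 986 in GM and 401, 479 and 440 in DM, and its level fell from 26.9 ± 1.11 to 12.3 ± 0.697 CPM (SD, n = 3; log2 fold change −1.13, SE 0.0852, edgeR adjusted p = 9.65e-07). MRPS5, which lines the channel by which mRNA enters the small subunit, had 2239, 2137 and 2051 counts in GM and 895, 876 and 1023 in DM. Its level fell from 53.1 ± 1.55 to 26.0 ± 1.90 CPM (SD, n = 3; log2 fold change −1.03, SE 0.0757, edgeR adjusted p = 7.97e-07). These 3 genes are the members past both thresholds, and in none of them did the groups overlap. By the gene table, which gives cattle Ensembl identifiers and names no genome build, MRPS23 (ENSBTAG00000012366) lies on chromosome 19 from 8886028 to 8891010, MRPL11 (ENSBTAG00000015006) on chromosome 29 from 45127205 to 45130554 and MRPS5 (ENSBTAG00000008241) on chromosome 11 from 1895750 to 1918798, all on the minus strand.

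The next 5 members by fold change were MRPS2 (−0.94), MRPS25 (−0.94), MRPS28 (−0.93), MRPL15 (−0.91) and MRPS7 (−0.90), with edgeR adjusted p-values from 1.85e-06 for MRPS25 to 0.000261 for MRPS28. MRPS28 had 588, 695 and 616 counts in GM and 215, 327 and 345 in DM. MRPS7, a protein of the mRNA exit side, fell from 52.5 ± 2.89 to 28.1 ± 2.02 CPM (SD, n = 3). The groups were separate in each of these 5 genes. MRPS2 and MRPS28 moved past the study's fold threshold without GM replicate 1 and without DM replicate 3. Each gave 5 members past both thresholds. Scaled by library size without TMM factors, MRPL15, MRPS2, MRPS25 and MRPS28 passed too, which gave 7. MRPS5 no longer passed the fold threshold without DM replicate 2 (−0.96) or with the study's RPKM minimum (−0.97). The same held with the 50 genes of highest mean count left out of the library size (−0.97), and each of these left 2 members.

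**Figure D2:**
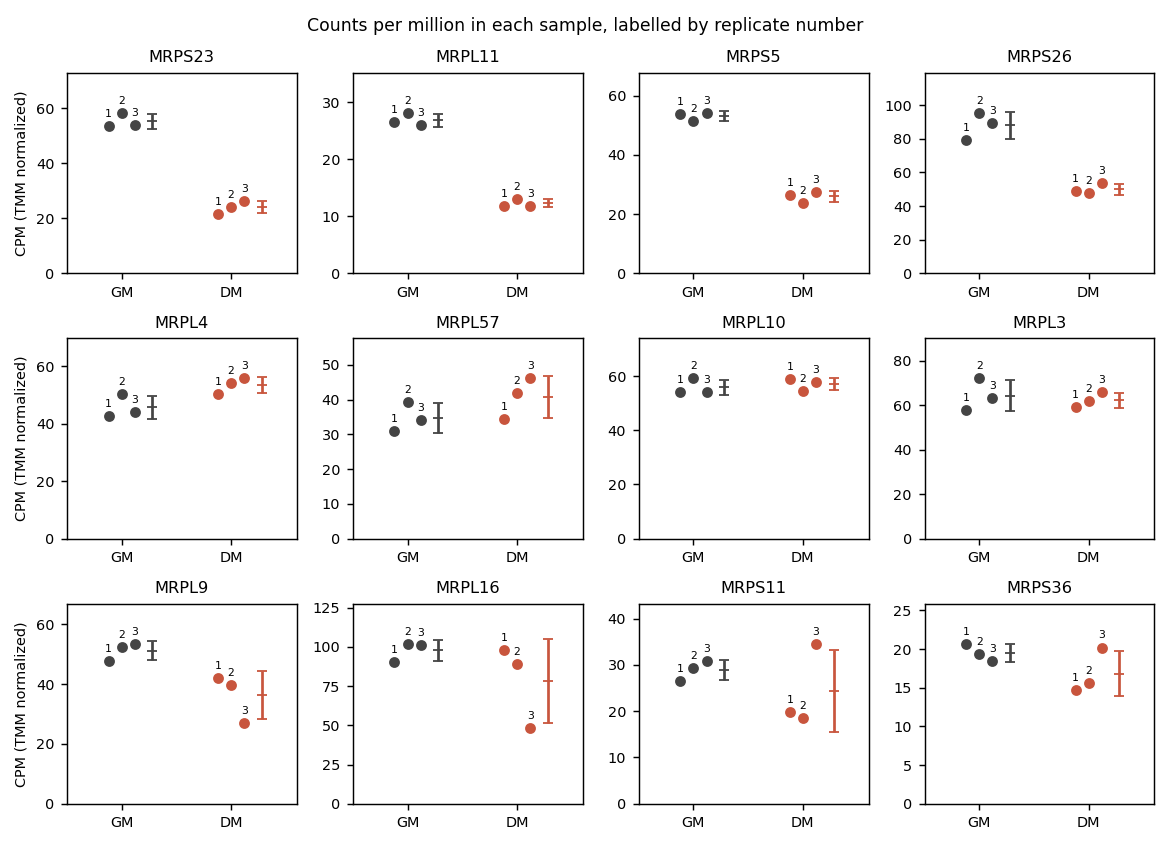
TMM-normalized CPM of 12 members in each sample. Points carry the replicate number, dark for GM and red for DM, and the bar beside them gives the mean and SD of 3 samples. MRPS23, MRPL11, MRPS5 and MRPS26 show separate groups, MRPL10 and MRPL3 overlap, and DM replicate 3 lies away from the other DM samples in MRPL9, MRPL16, MRPS11 and MRPS36.

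Both subunits took part. Of the 47 large subunit members, which include MRPS30 and MRPS18A since these proteins sit in the large subunit despite their names, 32 fell and 1 rose, with a median log2 fold change of −0.42. Of the 23 small subunit members 14 fell and none rose, with a median of −0.38. The shares that fell were 68.1% for the large subunit and 60.9% for the small one, against 31.4% of all tested genes. The shares that rose were 2.13% and 0%, against 31.6%. The small subunit had the wider spread, with an SD across genes of 0.391 against 0.285, and it held 5 of the 6 lowest fold changes (MRPS23, MRPS5, MRPS2, MRPS25 and MRPS28). MRPS36, which keeps a mitoribosomal name but acts as a subunit of the oxoglutarate dehydrogenase complex, did not pass (log2 fold change −0.21, edgeR adjusted p = 0.153). Its counts were 859, 809 and 697 in GM and 497, 572 and 747 in DM. Without DM replicate 3 it was lower by −0.36 (edgeR adjusted p = 0.00251).

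Members with a bacterial counterpart and those particular to mitochondria moved the same way. Among the former 24 of 40 fell (60.0%, median −0.32) and among the latter 22 of 31 (71.0%, median −0.45). Of all tested genes 31.4% fell. In the large subunit the counts were 16 of 27 (59.3%) with a bacterial counterpart and 16 of 20 (80.0%) without. Whether these shares differ was not tested.

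Positions in the particle were listed for some members only. No site was listed for 49, and the lists need not be complete. The central protuberance is a ridge of the large subunit that faces the small one. All 6 members listed there fell (100%, against 31.4% of all tested genes). They were MRPL18 (−0.89), MRPL48 (−0.84), MRPL46 (−0.68), MRPL38 (−0.55), MRPL40 (−0.48) and MRPL58 (−0.32), the last a peptidyl-tRNA hydrolase that frees stalled ribosomes. MRPL18 had 81.8, 99.7 and 88.9 CPM in GM and 47.1, 46.7 and 52.5 CPM in DM. Of the 4 proteins listed near the peptidyl transferase center, MRPL27 (−0.51) and MRPL2 (−0.34) fell, while MRPL16 and MRPL3 did not pass. At the rim of the tunnel by which the new chain leaves, MRPL22 (−0.42) and MRPL47 (−0.27) fell, and MRPL24 (−0.17) and MRPL45 (−0.06) did not pass. MRPS12, the counterpart of the bacterial decoding-center protein, fell by 0.48 on the log2 scale (edgeR adjusted p = 0.00211).

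The proteins of the stalk had contrasting values. MRPL10, the protein that anchors the stalk beside MRPL11, had 54.2, 59.1 and 54.1 CPM in GM and 58.8, 54.5 and 57.8 CPM in DM. Its groups overlapped, and its log2 fold change was 0.03 with a 95% interval of −0.12 to 0.19, against −1.32 to −0.94 for MRPL11. The difference between the genes was not tested in itself. MRPL10 shares part of its locus with SP2 on the opposite strand, and no source used here states whether counting used the strand.

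MRPL4 was the member that rose, and by little. Its counts were 1772, 2097 and 1667 in GM and 1699, 1989 and 2066 in DM, or 45.7 ± 4.12 against 53.5 ± 2.86 CPM (SD, n = 3; log2 fold change 0.23, SE 0.0815, edgeR adjusted p = 0.0314). Its groups overlapped, since GM replicate 2, at 50.4 CPM, lay above DM replicate 1, at 50.3 CPM. The call was lost when samples were scaled by library size without TMM factors (log2 fold change 0.13, edgeR adjusted p = 0.203) and without GM replicate 1, GM replicate 3 or DM replicate 2. MRPL57 had the same fold change, 0.23, with 30.9, 39.4 and 34.1 CPM in GM and 34.3, 41.9 and 46.1 CPM in DM, and did not pass (edgeR adjusted p = 0.115).

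The 24 members that did not pass were mostly measured closely enough to bound their change to less than 2-fold. For 23 of them the 95% interval of the log2 fold change lay between −1 and 1, and for 20 it held 0. That bound is wide, since most members that fell also lay within it. The intervals of MRPL16 and MRPS11 reached −0.77 and −0.68. In MRPL14, MRPL19, MRPL50 and MRPS18B the whole interval lay below 0, with an unadjusted edgeR p under 0.05. MRPL3, MRPL45, MRPS31, MRPS33 and MRPS35 had fold changes from −0.06 to 0.08. MRPL3, at 58.0, 72.1 and 63.1 CPM in GM and 59.3, 61.8 and 65.8 CPM in DM, had an interval of −0.24 to 0.14. The interval that passed −1 was that of the MRPL33 row on chromosome 13 (−1.33 to 0.87). It had 56, 29 and 18 counts in GM and 13, 22 and 43 in DM. A second row with that symbol lies on chromosome 14. Each spans 198 bases, equal to its listed length and so without an intron, and reads of near-identical copies may have been split between such rows, which leaves both uncertain.

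Among members that fell, MRPL58 (−0.32), MRPL36 (−0.31), MRPL47 (−0.27), MRPL13 (−0.26), MRPL53 (−0.25), MRPL1 (−0.25) and MRPS24 (−0.24) lay nearest to 0. The edgeR adjusted p-values of the last 4 ran from 0.0219 for MRPL13 to 0.0489 for MRPL1. MRPL53 had 33.4, 29.1 and 33.9 CPM in GM and 29.2, 25.9 and 26.0 CPM in DM, and its groups overlapped. The calls of MRPL13, MRPL53, MRPL1 and MRPS24 were each lost under at least 5 of the alternatives tried.

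Several members were set apart by DM replicate 3, in both directions. These genes were picked after their values were seen. In them this sample differed most from the mean of DM replicates 1 and 2, leaving out the MRPL33 row on chromosome 13. That row had few counts and a ratio of 2.36 to that mean. MRPL16 had 90.1, 102 and 101 CPM in GM and 97.8, 88.9 and 48.1 CPM in DM, so that DM replicate 3 was at 0.515 of the mean of the other DM samples. Its log2 fold change was −0.32 with all samples (edgeR adjusted p = 0.190) and −0.06 without DM replicate 3 (edgeR adjusted p = 0.504). MRPL9 had 47.7, 52.3 and 53.5 CPM in GM and 41.9, 39.8 and 27.1 CPM in DM, and fell both with that sample (−0.50, edgeR adjusted p = 0.00894) and without it (−0.32, edgeR adjusted p = 0.000784). MRPS11 went the other way, with 26.5, 29.3 and 30.8 CPM in GM and 19.9, 18.5 and 34.6 CPM in DM. Its log2 fold change was −0.25 with all samples (edgeR adjusted p = 0.300) and −0.58 without DM replicate 3 (edgeR adjusted p = 2.36e-06). Across the 71 members the median ratio of DM replicate 3 to the mean of the other DM samples was 1.10, against 1.0 over tested genes with counts in these samples.

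Levels were compared between members as RPKM, which corrects for length. In GM the members ran from 4.40 to 124 RPKM with a median of 33.6, and in DM from 3.51 to 82.6 with a median of 23.7. The highest means over all samples were those of MRPS26 (94.9 RPKM), MRPL41 (90.3), MRPL16 (89.6), MRPS16 (81.5) and MRPL20 (80.2). MRPS26 fell from 124 ± 10.9 RPKM in GM to 65.9 ± 4.45 RPKM in DM (SD, n = 3) and so passed from first place to below MRPL41, at 82.6 ± 6.36 RPKM in DM. In GM the next members below MRPS26, namely MRPL16 at 102 ± 6.71, MRPL41 at 98.0 ± 16.9 and MRPL18 at 98.0 ± 9.56 RPKM, lay within their spread of each other. The lowest means over all samples were those of the MRPL33 row on chromosome 13 (3.95 RPKM), MRPL53 (10.2), MRPL48 (11.2) and MRPS2 (12.6), followed by MRPL1, MRPL54 and MRPS28, all at 14.2 RPKM. In GM alone MRPS28, at 19.0 RPKM, lay above MRPL1 (15.9), MRPS31 (16.6) and MRPL54 (16.9). MRPL53 also has the longest gene model of the family, 2901 bases against a median of 978, and its RPKM depends on that length.

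The order of levels was largely kept between the groups. Across the 71 members, log2 RPKM in GM and DM had a Pearson's r of 0.928 and a Spearman's rho of 0.911, as a description of genes measured in the same libraries. Across the same 71 genes the fold change had an r of 0.00627 with log2 mean RPKM and of −0.0115 with gene length.

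**Figure D3:**
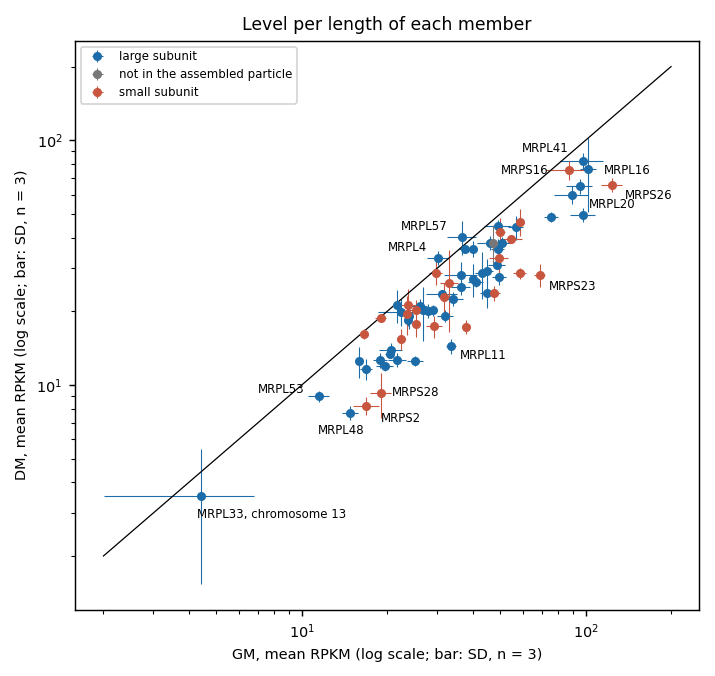
Mean RPKM of each member in GM (horizontal) and DM (vertical), both on log scales, with SD bars (n = 3) and the line of equal levels. Most members lie below the line, MRPS23 and MRPL11 lie farther below it than their neighbors, and MRPL4 and MRPL57 lie just above it.

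Summed over the family, the members took 0.264, 0.296 and 0.279% of all gene counts in the GM samples and 0.189, 0.198 and 0.206% in the DM samples. The means were 0.280 ± 0.0158% and 0.198 ± 0.00847% (SD, n = 3), a ratio of 0.706, and the groups did not overlap. The ratio was 0.669 for the small subunit and 0.723 for the large one. A share of counts also falls when other genes take more, and the ratio was 0.790 when the 50 genes with the highest mean count were left out of the total. The median of each member's CPM over its GM mean was 0.946, 1.04 and 0.999 in GM replicates 1 to 3 and 0.723, 0.745 and 0.795 in DM replicates 1 to 3. Members moved together between replicates too, since 63 of the 71 lay below their GM mean in GM replicate 1 and 15 in GM replicate 2. In bulk samples, fewer cells of a type and less RNA per cell cannot be told apart.

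The other proteins of the mitoribosome, which carry names outside the MRP series, fell as well. All 5 that were measured passed the test (100%, against 31.4% of all tested genes). They were PTCD3 (−1.06), GADD45GIP1 (−0.78), AURKAIP1 (−0.75), CHCHD1 (−0.30) and DAP3 (−0.18). PTCD3 sits near MRPS5 at the mRNA entry of the small subunit and had 54.1, 47.2 and 54.0 CPM in GM and 23.3, 24.7 and 26.2 CPM in DM (edgeR adjusted p = 1.12e-06). DAP3, a GTP-binding protein of the small subunit head, had 42.4, 44.7 and 43.1 CPM in GM and 39.6, 38.1 and 37.2 CPM in DM.

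Most of the factors that build the mitoribosome fell too. Of 29 measured, 17 fell (58.6%, against 31.4% of all tested genes) and 2 rose (6.9%, against 31.6%). The other 10 did not pass, and the median log2 fold change was −0.32. C1QBP, an RNA-binding matrix protein, fell from 162 ± 7.39 to 71.3 ± 2.18 CPM (SD, n = 3; log2 fold change −1.19, edgeR adjusted p = 7.75e-08), and RCC1L, part of a module that modifies mitochondrial rRNA, by 0.79 on the log2 scale. NGRN (0.60) and MTERF2 (0.61) rose, and the place of MTERF2 among these factors is uncertain. Of the translation factors that work on the finished ribosome 5 of 18 fell and 1 rose, at a median of −0.13, and this share of 27.8% lower is below the 31.4% of all tested genes. The elongation factors TUFM (−0.61) and TSFM (−0.47) had the lowest fold changes, and MTFMT (0.44), which formylates the initiator tRNA, rose. Of 18 mitochondrial tRNA synthetases and related enzymes, 10 fell (55.6%, against 31.4% of all tested genes) and none rose, against 31.6% (median −0.28). AARS2 (−1.28) and GATB (−0.69), a subunit of the enzyme that makes glutaminyl-tRNA, had the lowest values. AARS2 overlaps MRPL14 on the same strand, and MRPL14 did not pass with all samples (−0.28, edgeR adjusted p = 0.0504) but fell without DM replicate 3 (edgeR adjusted p = 0.000664).

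Genes of mitochondrial transcription and its regulators were split by a single large rise. PPARGC1A, a coactivator of mitochondrial biogenesis, went from 14, 6 and 13 counts in GM to 144, 143 and 116 in DM (log2 fold change 3.77, SE 0.328, edgeR adjusted p = 2.83e-06). Its relative PPRC1 fell (−1.09), as did POLRMT, the mitochondrial RNA polymerase (−1.35, 124, 134 and 126 CPM in GM and 52.3, 47.1 and 51.8 CPM in DM). NRF1 (−0.96) and MYC (−0.84), regulators of nuclear genes for mitochondria, also fell, while TFAM, which packages mitochondrial DNA, did not pass (−0.10, edgeR adjusted p = 0.364). In all 8 of 17 fell (47.1%, against 31.4% of all tested genes) and 1 rose (5.88%, against 31.6%). Of the protein import machinery, through which each mitoribosomal protein passes, 18 of 25 genes fell (72.0%, against 31.4% of all tested genes). Of these 25 genes 2 rose (8.0%, against 31.6%), and the median was −0.53.

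**Figure D4:**
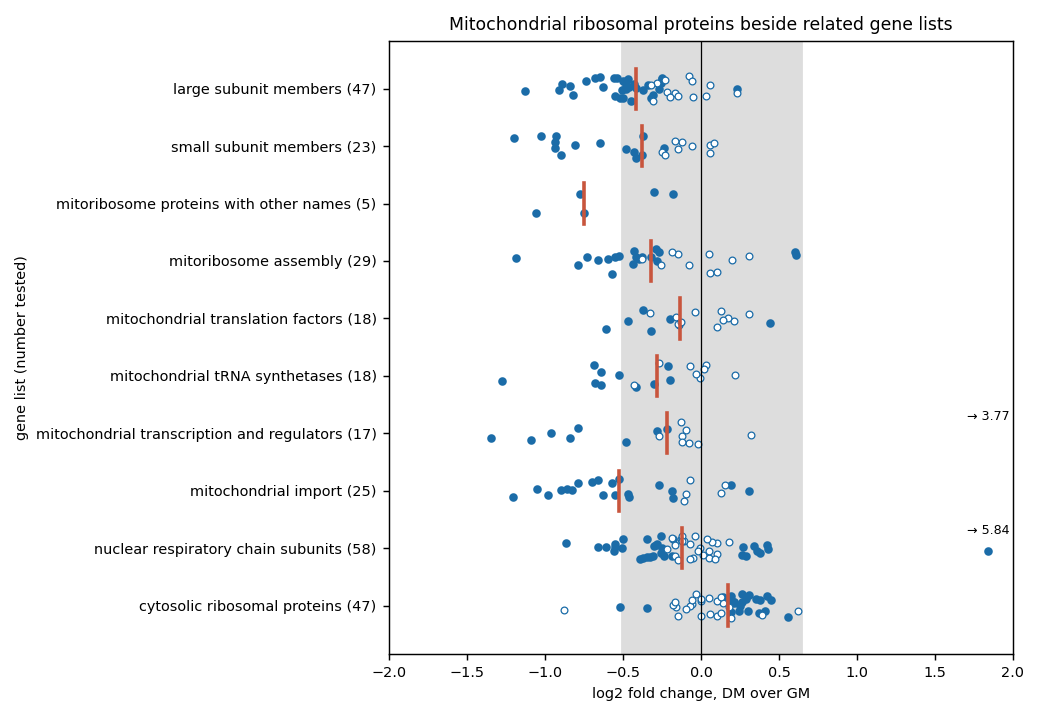
Log2 fold change, DM over GM, of the members by subunit and of 8 related gene lists, with 1 point per tested gene, filled where the adjusted p was under 0.05. Red bars are medians, the gray band holds the central 50% of all tested genes, and arrows give values beyond the axis. Medians lie at −0.42 and −0.38 for the subunits and at 0.17 for cytosolic ribosomal proteins.

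Ribosomal proteins of the cytosol seldom fell. Of 47 measured, 2 fell (4.26%, against 31.4% of all tested genes), 21 rose (44.7%, against 31.6%) and 24 did not pass. The median log2 fold change was 0.17, which stayed above 0 under each scaling tried (0.08 to 0.24). They took 3.82 ± 0.180% of gene counts in GM and 4.04 ± 0.0305% in DM (SD, n = 3). Just 51 of the 80 listed symbols were matched in the table, and many of these genes have near-identical copies. RPS7 (0.56) and RPS20 (0.45) rose and RPL28 (−0.52) fell. The difference between the families was not tested in itself.

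The nuclear-encoded subunits of the respiratory chain, which join the products of the mitoribosome, were divided. Of 58 measured, 23 fell (39.7%, against 31.4% of all tested genes) and 10 rose (17.2%, against 31.6%), with a median of −0.12. CYC1, cytochrome c1, fell (−0.87), while COX7A1 (1.84) and COX6A2, the muscle forms of cytochrome oxidase subunits, rose. COX6A2 had 1, 1 and 3 counts in GM and 67, 104 and 106 in DM. The mRNAs that the mitoribosome translates could hardly be measured. Of 12 listed, ND1, COX1 and ATP6 had 82 to 125 counts in all 6 samples together and the others 0 to 4. None of the 3 passed, and no level of mitochondrial mRNA can be set beside the members. No source used here gives the reason for these low counts, and it was not tested.

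Other gene groups also changed between GM and DM, some in the members' direction and some against it. All 18 genes of a cell cycle list fell past both thresholds (100%, against 10.3% of all tested genes). Their median was −2.29, with a summed level of 3640 to 3740 CPM in GM samples and 805 to 912 CPM in DM samples. Of the myogenic markers 9 rose (56.2%, against 31.6% of all tested genes) and 6 fell (37.5%, against 31.4%). Of 12 fibroblast markers 11 were tested, with TCF21 too low to test. Of these 10 rose (90.9%, against 31.6% of all tested genes) and POSTN fell (9.09%, against 31.4%). Their summed level was 36000 to 36800 CPM in GM samples and 98600 to 124000 CPM in DM samples. The summed markers of adipocytes, endothelial cells and blood and immune cells stayed under 14 CPM in each sample, with PTPRC and CD3E under 10 counts in all. The part of the cell cycle, myogenic and fibroblast genes in the members' lower levels was not tested.

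The members are spread over 27 chromosomes, with at most 7 on any (chromosomes 11 and 19) and none on X. Members often had a close neighbor transcribed away from them, with the starts of both genes within 1000 bases. This held for 21 of the 71 members (29.6%) and for 1165 of 19923 other protein-coding genes (5.85%), given as a description of the annotation. In a single case both neighbors were members, MRPL46 and MRPS11, whose starts lie 110 bases apart. MRPL46 fell (−0.68), with 19.5, 22.4 and 20.4 CPM in GM and 13.1, 11.9 and 13.9 CPM in DM, and so lacks the high value that MRPS11 had in DM replicate 3.

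Of the other 19 neighbors 10 fell (52.6%, against 31.4% of all tested genes), 5 of them past both thresholds (26.3%, against 10.3%), and 1 rose. These 5 were MTBP, NCAPD2, SKA3, EME1 and TCP1, and each had a lower fold change than the member beside it. SKA3, a kinetochore protein, was lower by −1.74 while MRPL57, 80 bases away, had the fold change of 0.23 given above. NCAPD2, a condensin subunit (−1.76), stands beside MRPL51 (−0.48), and MTBP (−1.82) beside MRPL13 (−0.26). EME1, an endonuclease subunit (−1.20), starts 36 bases from MRPL27 (−0.51). TCP1, a subunit of the cytosolic chaperonin (−1.09), lies beside MRPL18 (−0.89). Across the 19 pairs the fold changes of member and neighbor had a Pearson's r of −0.0277 and a Spearman's rho of 0.0965.

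**Figure D5:**
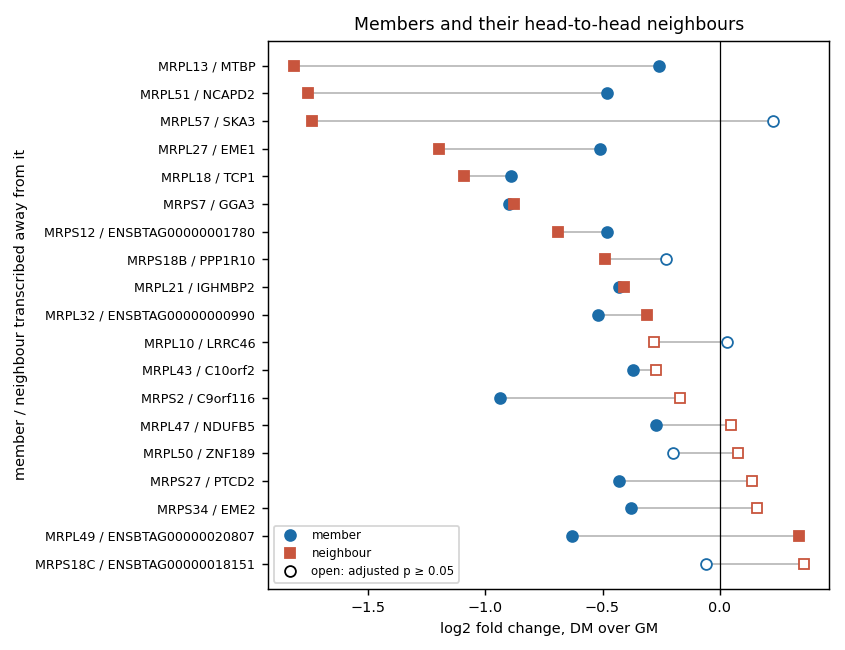
Log2 fold change, DM over GM, of 19 members (circles) and of the neighbor transcribed away from each (squares), ordered by the neighbor, with open symbols where the adjusted p was 0.05 or more. MTBP, NCAPD2 and SKA3 lie left of −1.5 while the members beside them lie between −0.48 and 0.23.

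There are 7 members that share sequence with another listed gene, which can add or remove reads. These are MRPL10, MRPL43, MRPL55 and MRPS22 on the opposite strand of a gene and MRPL14, MRPS6 and MRPS31 on the same strand. Of the 64 members that overlap no listed gene 43 fell (67.2%, against 31.4% of all tested genes) and 1 rose (1.56%, against 31.6%). The median was −0.43.

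The mRNA table gave the same picture, since it holds nearly the same counts. It lists 72 transcripts of the members, 71 of them with the counts of their gene, and MRPL55 alone has 2. In DM 50 transcripts fell and 1 rose, where 32.3% of 16352 tested transcripts fell and 32.3% rose. The transcripts are not a second measurement of the genes.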

How the data were processed

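RNA-seq was analysed for 3 GM and 3 DM samples of buffalo MuSCs, each assigned to its group by its label. The deposited count columns of the gene and mRNA tables hold raw counts, which by the paper's methods the authors obtained from HISAT2 alignments to a buffalo genome. The deposited RPKM columns were scaled by the authors by the Length column and the sample's summed counts. The tables list cattle Ensembl identifiers and no build, and the submitters' processing notes name Bowtie 0.12.2 and the mouse builds mm8 and mm9. These sources conflict, so the aligner and genome behind the counts are uncertain. The deposited lists of differentially expressed features hold the authors' log2 fold changes, p-values and q-values and were not used, nor was the ncRNA table. No sample column was left unmapped.

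Genes with at least 10 counts over the 6 samples were tested with edgeR 4.0.16 (quasi-likelihood test, TMM factors, R 4.3.3) and Benjamini-Hochberg adjustment over all tested genes. A member fell or rose at an adjusted p under 0.05, and the study's thresholds add an absolute log2 fold change above 1. Standard errors and 95% intervals came from the F statistic, and CPM used TMM-scaled library sizes. Sums and figures were made in Python 3.11.15 with pandas 2.3.3, numpy 2.4.6, scipy 1.17.1 and matplotlib 3.10.9. Intervals cover the spread between these samples and not further cultures. TMM factors were 1.032 to 1.037 in GM and 0.948 to 0.983 in DM. On simulated data with 200 genes changed 1.5-fold, 106 were recovered at an adjusted p under 0.05 among 15412 genes, with 3 unchanged genes past that threshold. Of 200 genes changed 2-fold, 136 were recovered among 15421 genes, with 15 unchanged genes past the same threshold. The changed genes were drawn at random from all tested genes, including those with few counts. Far more genes changed in the data (31.4% lower and 31.6% higher), so these counts do not give the recovery for the members.

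The members and all gene lists were chosen with earlier results of these data known, and lists are described by counts and medians with no test. Named members are those past both thresholds, the 8 lowest and 8 highest fold changes among members past the adjusted p, the 5 highest and 5 lowest levels, and the 2 largest changes in each list of mitochondrial translation. Other members are named for their place in the particle, and those set apart by DM replicate 3 or not passing were named after their values were seen. Roles were written from general knowledge. Alternatives were DESeq2 1.42.0, other scalings and filters, a replicate block and each sample left out in turn.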

Additional observations from a re-analysis of the deposited data

How the results depend on the processing

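The count of members that fell was 46 and ran from 40 to 51 over all alternatives. The share of all tested genes that fell moved too, from 26.8% to 35.5%, and the share that rose ran from 26.7% to 34.9%. The members' median log2 fold change stayed below 0, from −0.45 to −0.35 with each sample left out in turn. Minus the median of all tested genes it was −0.47 to −0.33 over all alternatives. Scaled by library size without TMM factors, the median was −0.48 and that of all tested genes moved from 0.03 to −0.07. There 51 members fell, 0 rose and 7 passed both thresholds, while 35.5% of all tested genes fell and 27.4% rose. With the 50 genes of highest mean count left out of the library size, 40 fell, 2 rose and 2 passed both thresholds. Of all tested genes 28.7% fell and 34.5% rose there, and the members' ratio of shares (DM over GM) was 0.790 against 0.706. With the study's RPKM minimum 42 fell, 1 rose and 2 passed both thresholds, where 34.8% of tested genes fell. With each sample left out in turn, 0 to 2 members rose and 2 to 5 passed both thresholds, with 5 without GM replicate 1 or DM replicate 3. A test against a fold change of 1.5 (glmTreat), a lower bar than 2-fold, gave 13. Shares of all tested genes past both thresholds, or by glmTreat, are not given for these alternatives. The MRPL33 row on chromosome 13 turned to 0.29 without GM replicate 1 and 0.07 without DM replicate 1, and was −0.76 without DM replicate 3. Of 345 values for 23 named members, 306 kept direction and side of the threshold, 36 lost the threshold, 1 gained it (MRPS16 without GM replicate 1, −0.25) and those 2 changed sign.

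No pairing by replicate number was seen, as deviations of samples with the same number had correlations of −0.008, −0.022 and −0.010. These values cannot exclude a shared animal or culture, which no source used here states. A replicate block gave 47 lower, 1 higher, 3 past both thresholds and a median of −0.38. The MRPL33 row on chromosome 13, ND1, COX1 and ATP6 had few counts, and their 95% intervals reached past a log2 fold change of −1 or 1.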
